A study of Mus musculus with 15 samples.

Results

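Livers of mice labelled as Txnip knockout were compared, gene by gene, with livers labelled as TXNIP C247S knock-in. That change puts a serine in place of a cysteine. Both groups had been on a high-fat diet for 8 weeks, per the series' design text, so the diet is common to the groups and no other diet enters the comparison. The members were the 5 libraries labelled as Txnip knockout (KO) and the 5 labelled as TXNIP C247S knock-in (C247S KI), 10 of the 15 libraries of the series. The remaining 5 wild-type (WT) libraries, on the same diet, are given as a level only. The labels used here state neither how the knockout was made, nor in which cells, nor the zygosity, sex or age of the mice. They also do not state that each library was a separate animal, so the p-values measure the spread between libraries, which may be technical.

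TXNIP, the thioredoxin-interacting protein, is an alpha-arrestin. It forms a disulfide with the active site of reduced thioredoxin through that cysteine, and it also restrains glucose uptake by promoting the internalisation of glucose transporters. The knockout is designed to remove the whole protein, and the C247S change to remove the cysteine that pairs with thioredoxin while leaving the rest of the protein. By its title, the series asks whether the covalent bond with thioredoxin is needed for diet-induced insulin resistance of the liver.

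Estimated counts per library summed to between 18047577 and 23379940, and 13916 genes passed the filter on low counts. Values below are counts scaled to library size (CPM) unless a log2 fold change is named, which is always KO minus C247S KI, so that a negative value is lower in KO. On the first principal component of the 10 libraries (32.4% of the variance), KO libraries lay at 11.49 to 27.41 and C247S KI libraries at -30.02 to -9.06. The second component (19%) had KO 5 at one end (-32.35) and C247S KI 3 at the other (23.47). C247S KI 3 also held the highest sum of acute-phase transcripts. Clock genes differed between the groups as well, with an index of clock output that did not overlap between them (given with the clock genes). For some of the results that rest on these libraries, values without them are given as well.

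Txnip itself (chr3:96557957-96561883, GRCm38) was still measured in the KO livers. Its level was 70.9, 123, 108, 74.2 and 119 CPM in KO 1 to 5, and 168, 280.2, 99.9, 208 and 205 CPM in C247S KI 1 to 5. WT livers held 222 ± 56.2 CPM (SD, n = 5). The groups overlapped, because C247S KI 3 lay within the KO range. The log2 fold change was -0.96 (SE 0.24, adjusted p = 0.0182), and the exact two-sided permutation test gave p = 0.0317, where 5 libraries against 5 can give no less than 0.00794. The call was lost without KO 4 (adjusted p = 0.0576) and against a minimum fold of 1.2 (adjusted p = 0.056). Both main coding transcripts had estimated counts in every KO library, 835 to 1449 for ENSMUST00000074519 and 549 to 1190 for ENSMUST00000049093. Estimates per transcript cannot place reads on exons, so these values do not check a deletion that leaves part of the transcript. "KO" below means the libraries labelled so.

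No paralogue of Txnip passed the test. Arrdc2, Arrdc3 and Arrdc4, the other alpha-arrestins, had log2 fold changes of 1.02 (SE 0.40, adjusted p = 0.114), 0.59 (SE 0.40, adjusted p = 0.355) and 0.15 (SE 0.20, adjusted p = 0.677). Arrdc1 stood at -0.01 (SE 0.22). The thioredoxins Txn1 and Txn2 both had a log2 fold change of 0.30 (adjusted p = 0.162 and 0.195), and the cytosolic reductase Txnrd1 had -0.09 (adjusted p = 0.603). In the thioredoxin system list 3 of 26 tested genes rose in KO and none fell, beside a background of 4.41% of all genes called higher and 5.85% called lower. The mitochondrial reductase Txnrd2 was 39.4, 44.9, 37.1, 46 and 36.6 CPM in KO and 31.7, 30.9, 29.6, 32.6 and 26.9 CPM in C247S KI, with no overlap (log2 fold change 0.43, SE 0.09, adjusted p = 0.00787). The peroxide-reducing enzymes Prdx6 (0.55, SE 0.13, adjusted p = 0.0132) and Prdx5 (0.52, SE 0.15, adjusted p = 0.0343) were the other 2. The Prdx5 call was lost on leaving out any of 7 single libraries (adjusted p up to 0.0955).

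Across all genes, 1427 of 13916 (10.3%) differed between KO and C247S KI, 613 higher and 814 lower in KO. The median log2 fold change of all genes was -0.03. Falls were larger than rises: 321 of the called genes were more than 2-fold lower and 85 more than 2-fold higher. The 5 KO and 5 C247S KI libraries did not overlap for 1345 genes (9.67%), and 947 of these (6.81% of all genes) were also called. Leaving out 1 library moved the count by more than 1.5 times in 7 cases: 784 without KO 2, 948 without KO 3, 787 without KO 4, 939 without KO 5, 830 without C247S KI 1, 855 without C247S KI 5 and 2280 without C247S KI 3.

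**Figure D1:**
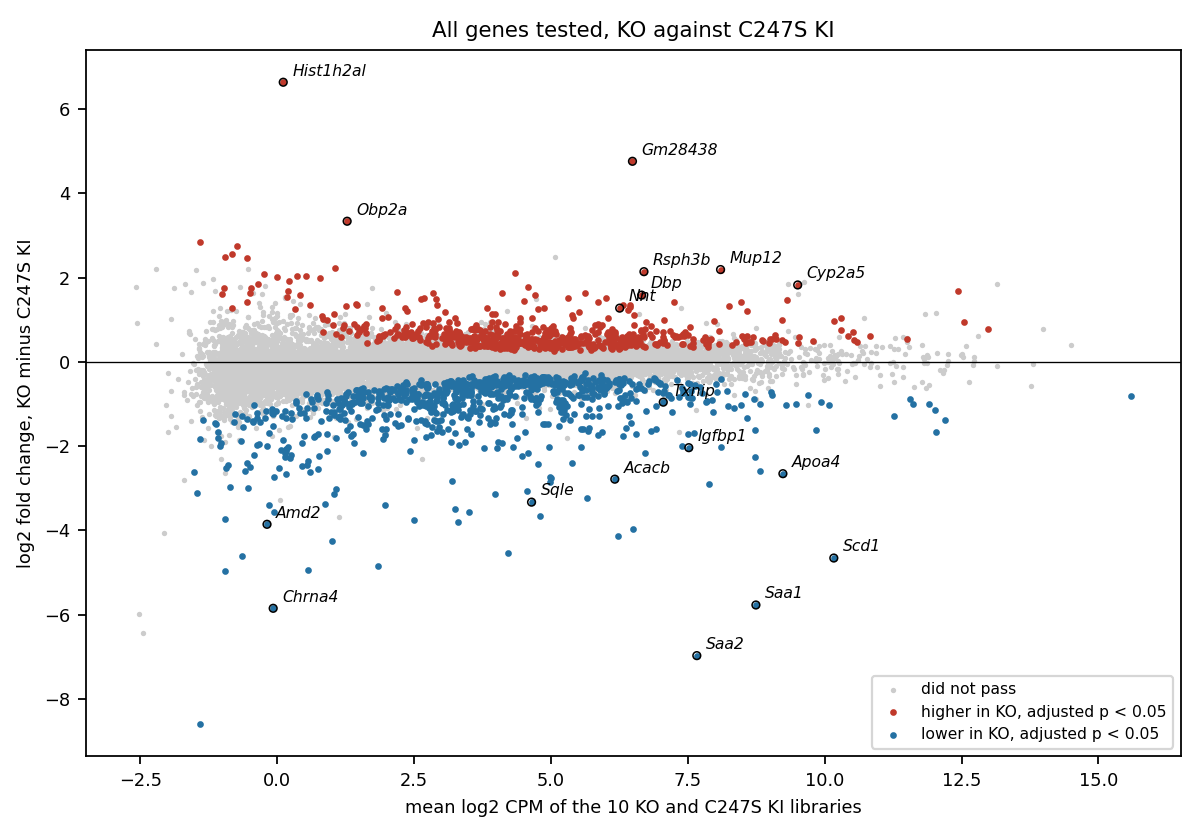
Each point is 1 of 13916 tested genes, with mean log2 CPM on the x axis and the log2 fold change of KO against C247S KI on the y axis, and called genes are coloured. The 321 called genes below -1 outnumber the 85 above 1.

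By the naming rule, the largest falls with no overlap included Saa2 (-6.97), Chrna4 (-5.85), Saa1 (-5.77), Aqp4 (-4.97), Cyp2a22 (-4.94), Tff3 (-4.84), Scd1 (-4.66), Selenbp2 (-4.15), Lcn2 (-3.96), Amd2 (-3.86) and Cfd (-3.76), as log2 fold changes. Several of these start from low levels. Chrna4, a nicotinic receptor subunit, was 0.0504 to 0.275 CPM in KO and 1.2 to 17.1 CPM in C247S KI. Aqp4, a water channel, had no count in 3 of the 5 KO libraries. The fitted folds of such genes depend on the prior count. The largest rises were Obp2a (3.34), Serpina9 (2.75), Gbp2b (2.56), Onecut3 (2.48), Plcd3 (2.23), Mup12 (2.19), Rsph3b (2.14), Cela1 (2.11), Tcp11 (1.93), Cyp2g1 (1.85), Cyp2a5 (1.83) and C2cd4d (1.69). Among them Rsph3b, a radial spoke protein, was abundant, at 188 to 295 CPM in KO and 46.1 to 60.4 CPM in C247S KI (adjusted p = 6.64e-05). Saa1 and Saa2, Mup12, Cyp2a5 and Cyp2a22, Amd2 and Rsph3b have near-identical copies in the genome, among which the authors' estimates may have divided reads. The Cyp2g1 call was lost without KO 2 (adjusted p = 0.0599).

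**Figure D2:**
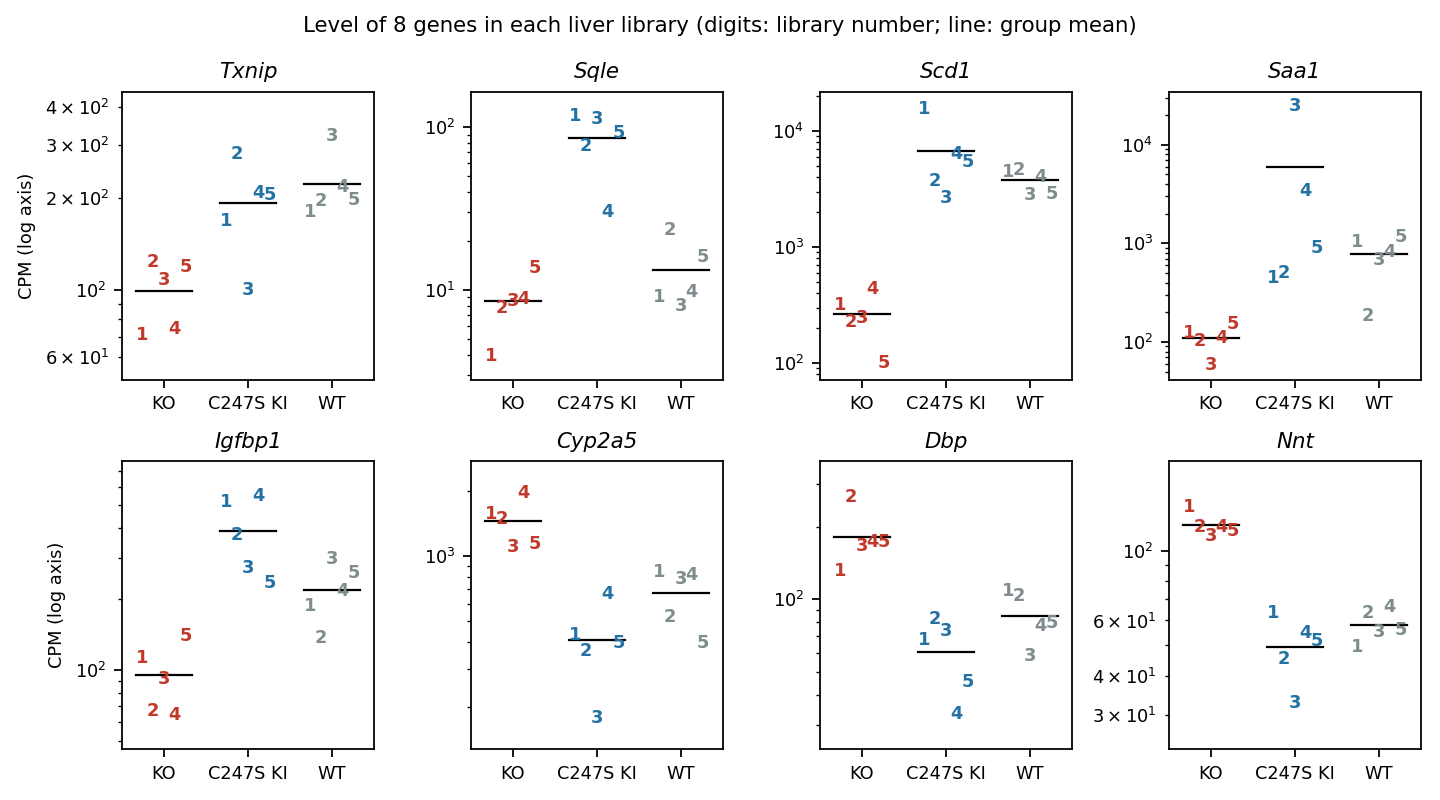
CPM on a log axis for 8 genes in each KO, C247S KI and WT library, with digits for the library number and a line for the group mean. Txnip overlaps between KO and C247S KI because of C247S KI 3, while Sqle, Scd1, Saa1, Igfbp1, Cyp2a5, Dbp and Nnt do not overlap.

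Cholesterol synthesis had the highest share of called members among the 52 lists examined. Hepatocytes build cholesterol from acetyl-CoA through mevalonate and squalene, and transcription of the enzymes is driven by SREBP2, which is released when membrane sterol is low. All 22 members were tested, 18 were lower in KO and none was higher, and all 22 had negative log2 fold changes (median -1.43, beside -0.03 for all genes). The summed level was 1229 to 1677 CPM in KO, 2327 to 4304 CPM in C247S KI and 1657 to 2375 CPM in WT. Set against WT, the median of the list was -0.41 for KO and 1.15 for C247S KI, and 6 members were called higher in C247S KI than in WT. These comparisons share their WT libraries, and the KO and C247S KI libraries with the main one.

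Of the mevalonate steps, Hmgcs1, which makes HMG-CoA, was 43.5, 55.1, 50.4, 57.7 and 60.2 CPM in KO and 380.5, 197, 233, 69.6 and 323 CPM in C247S KI (log2 fold change -2.17, SE 0.33, adjusted p = 0.000811). Every C247S KI library lay above every KO library, C247S KI 4 by the least. Of the squalene steps, Fdft1, squalene synthase, was 13.2 ± 4.37 CPM in KO and 88.8 ± 35.9 CPM in C247S KI (SD, n = 5 each; -2.75, adjusted p = 0.000327). Sqle, squalene epoxidase, had the largest fall of the list. Its level was 3.93, 7.77, 8.58, 8.81 and 13.6 CPM in KO and 118, 76.2, 113, 30.3 and 92 CPM in C247S KI, against 13.2 ± 6.48 CPM in WT (-3.33, SE 0.39, adjusted p = 9.7e-05). Of the sterol steps, Dhcr7, which makes the last reduction, was 32.7 ± 6.32 CPM in KO and 109 ± 34 CPM in C247S KI (-1.74, adjusted p = 7.6e-05). Hsd17b7 was 25.8 ± 3.98 and 66.6 ± 19.5 CPM (-1.37, adjusted p = 0.000271). The number of members called lower ranged from 15 to 18 over the 10 fits that left out 1 library, and was 18 without C247S KI 3 and KO 5 together.

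Since the members of this list moved together, stretches of 80 bases before the start of transcription are shown for 5 of them (RefSeq, GRCm38.p6, read along the gene's strand). The capitals mark CCAAT, written ATTGG where the match is on the other strand, and in Hmgcs1 the sterol regulatory element TCACNCCAC, in which N is any base. These 5 were chosen after the search because they hold a match.
Hmgcs1 (chr13:119690178-119690257, plus strand): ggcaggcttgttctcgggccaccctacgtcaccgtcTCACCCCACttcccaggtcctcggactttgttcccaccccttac
Dhcr7 (chr7:143830091-143830170, plus strand): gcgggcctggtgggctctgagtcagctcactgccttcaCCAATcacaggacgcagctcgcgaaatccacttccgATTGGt
Hsd17b7 (chr1:169969329-169969408, minus strand): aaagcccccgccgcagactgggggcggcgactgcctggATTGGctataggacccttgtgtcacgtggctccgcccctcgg
Cyp51 (chr5:4104698-4104777, minus strand): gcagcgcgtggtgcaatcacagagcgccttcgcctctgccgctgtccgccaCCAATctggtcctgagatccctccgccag
Pmvk (chr3:89454367-89454446, plus strand): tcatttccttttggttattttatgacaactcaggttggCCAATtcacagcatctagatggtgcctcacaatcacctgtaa
CCAAT is the site bound by NF-Y, which is known to act with SREBP2. In the 250 bases before the start, on both strands, 16 of the 17 members found in the promoter table held CCAAT (94.1%), as did 40.4% of the 10559 tested genes in that table. TCACNCCAC was in 1 of the 17 (5.88%) and in 1.28% of the tested genes. A match is a run of letters, not a measured binding site.

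The regulators around this pathway moved less. In the list of the SREBP2 axis, 3 of 13 tested genes were lower and 1 was higher (median -0.40). Srebf2, which encodes SREBP2, was 43.8 ± 4.17 CPM in KO and 65.9 ± 5.97 CPM in C247S KI (log2 fold change -0.59, SE 0.11, adjusted p = 0.00343). Insig2, which holds SREBPs in the endoplasmic reticulum, was 70.7 ± 8.46 CPM in KO, 213 ± 40.5 CPM in C247S KI and 263 ± 101 CPM in WT (-1.59, adjusted p = 0.000297). Of 12 sterol efflux genes 2 were higher, the oxysterol receptor Nr1h2 (0.35, adjusted p = 0.0188) and the sterol transporter Abcg8 (0.58, adjusted p = 0.026), lost without any of 2 and 4 single libraries (adjusted p up to 0.0589 and 0.0669).

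Fatty acid synthesis was also lower in KO. In the lipogenesis list 12 of 23 tested genes were lower and 1 was higher (median -0.83). Their summed level was 4928 to 6091 CPM in KO, 7103 to 26650 CPM in C247S KI and 9671 to 12769 CPM in WT. The gap between these sums is largely that of 1 gene, Scd1, with means of 265 CPM in KO and 6699 CPM in C247S KI. The sums therefore do not show that the other members separate the groups. Scd1, which desaturates stearate to oleate, was 318, 228, 245, 435 and 101 CPM in KO and 15479, 3705, 2623, 6340 and 5346 CPM in C247S KI. Every C247S KI library was above every KO library, C247S KI 1 highest (log2 fold change -4.66, SE 0.48, adjusted p = 5.92e-05), and WT held 3745 ± 852 CPM. Acacb, the mitochondrial acetyl-CoA carboxylase, was 23.1 to 34 CPM in KO and 90.5 to 301 CPM in C247S KI (-2.78, SE 0.32, adjusted p = 8.87e-05). Fasn, fatty acid synthase, was 115 ± 21.4 and 366 ± 183 CPM (-1.68, adjusted p = 0.00141). Acss2, which makes acetyl-CoA from acetate, was 69 ± 6.55 and 215 ± 124 CPM (-1.64, adjusted p = 0.00154). The elongase Elovl5 overlapped, at 124 to 185 CPM in KO and 180.2 to 1086 CPM in C247S KI, the lowest being C247S KI 3 (-2.02, adjusted p = 0.00247). The higher gene was Dgat2, which completes triglyceride (0.44, adjusted p = 0.0366), and this call was lost on leaving out any of 8 single libraries (adjusted p up to 0.102). The lipogenic regulators Srebf1 (0.09, SE 0.22, adjusted p = 0.821) and Mlxipl, which encodes ChREBP (0.14, SE 0.29, adjusted p = 0.787), did not pass the test. Of 13 ChREBP targets 2 were lower, Txnip itself and Fgf21 (-1.71, adjusted p = 0.0131), and 1 was higher, the fructose transporter Slc2a5 (1.19, adjusted p = 0.012).

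**Figure D3:**
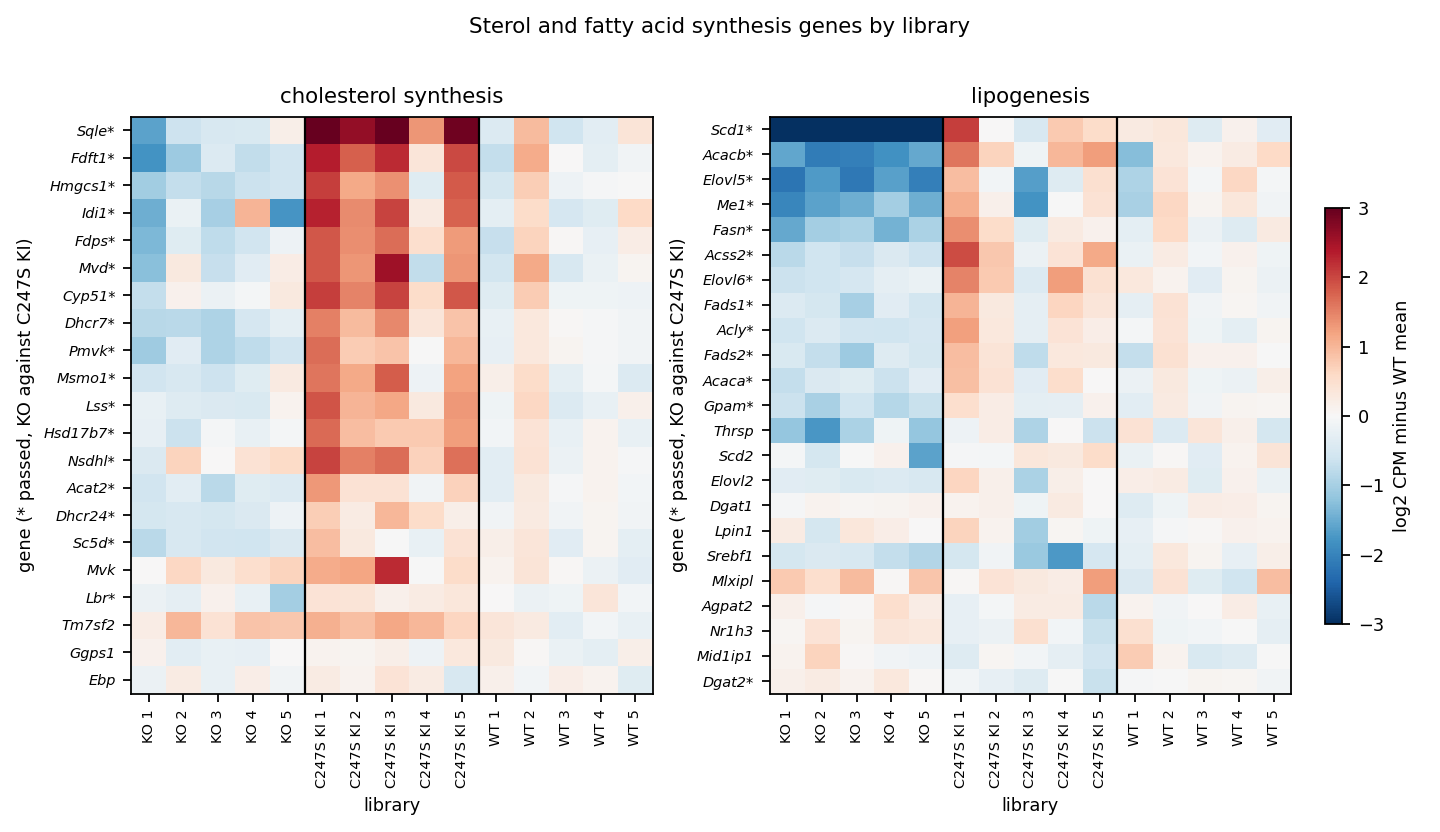
Log2 CPM minus the WT mean for tested members of the cholesterol synthesis and lipogenesis lists (rows) in the KO, C247S KI and WT libraries (columns), with colours that stop at 3 in either direction. The cholesterol rows are mostly above the WT mean in C247S KI and mostly below it in KO.

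Genes of lipid droplets and steatosis followed, with 8 of 22 lower and none higher in KO (median -0.55). Some of the called members coat droplets or carry fatty acids. Fabp4, a fatty acid binding protein, was 7.46 to 10.9 CPM in KO and 16.5 to 32.9 CPM in C247S KI (log2 fold change -1.44, SE 0.17, adjusted p = 0.000122). Hsd17b13, a droplet-bound enzyme of hepatocytes, was 252 ± 29.7 and 509 ± 113 CPM (-1.02, adjusted p = 0.000773). Cd36, a fatty acid importer, was 31.5 ± 9.39 and 97.5 ± 50 CPM (-1.63, adjusted p = 0.00477), and Hilpda was 1.73 ± 0.339 and 4.28 ± 1.24 CPM (-1.31, adjusted p = 0.00201). Cidec, which fuses droplets, was 4.59 to 9.22 CPM in KO and 66.4, 58.1, 7.58, 29.9 and 114 CPM in C247S KI, so that C247S KI 3 lay within the KO range (-3.14, adjusted p = 0.00639). Cidea was at 0.139 ± 0.0683 and 1.87 ± 1.82 CPM (-3.74, adjusted p = 0.0276), and its call was lost on leaving out any of 6 single libraries (adjusted p up to 0.0818). For these genes the WT level was nearer to C247S KI: the list's median against WT was -0.74 for KO and -0.17 for C247S KI. In a bulk sample, fewer cells of a type and less RNA per cell cannot be told apart. Of 8 adipose tissue markers 4 were tested, and 3 were lower, Fabp4, Cidec and Cfd, an adipocyte-secreted protease (1.01 to 3.21 CPM in KO and 7.64 to 48.3 CPM in C247S KI). The fourth, the lipase Pnpla2, was at -0.03 (adjusted p = 0.939). The 4 that did not pass the filter, among them the defining adipocyte genes Adipoq and Plin1, were near 0, with means of 0.12 and 0.146 CPM in KO and 0.082 and 0.105 CPM in C247S KI. Lep and Retn had means of 0 and 0.084 CPM in KO and 0.00871 and 0.103 CPM in C247S KI.

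Lipoprotein and bile acid genes had 1 or 2 calls per list, and oxidation genes had more, in both directions. Of 16 apolipoproteins and lipoprotein genes 2 were lower, Apoa4, an intestinal and hepatic apolipoprotein (179.6 to 488 CPM in KO and 792 to 2388 CPM in C247S KI; log2 fold change -2.65, adjusted p = 0.000624), and the phospholipid transfer protein Pltp (-1.60, adjusted p = 0.00835). Slc10a2, the apical sodium bile acid transporter, was 12.5, 3.28, 6.38, 12 and 8.79 CPM in KO and 76.3, 60.2, 60.7, 75.6 and 83.9 CPM in C247S KI. Its groups were far apart and did not overlap (-3.06, SE 0.28, adjusted p = 1.8e-05), and WT held 59.2 ± 15.7 CPM. Of 12 bile acid transport genes the other lower one was Abcb1a (-1.34, adjusted p = 0.0369), whose call was lost on leaving out any of 6 single libraries (adjusted p up to 0.118). Of 18 bile acid synthesis genes only Hsd3b7 passed, higher in KO (0.55, adjusted p = 0.0179). Of 32 genes of fatty acid oxidation and ketogenesis 5 were lower and 2 higher (median 0.11). The omega-hydroxylase Cyp4a31 was 3.12 to 7.35 CPM in KO and 6.93 to 17.8 CPM in C247S KI (-1.37, adjusted p = 0.0025). The calls of Cyp4a32 (-0.52), the thioesterase Acot2 (-1.33) and the higher Acaa2 (0.49) were lost on leaving out any of 5, 8 and 6 single libraries (adjusted p up to 0.0891, 0.105 and 0.101). The count of 5 fell to 3 without KO 1, KO 3, KO 4, C247S KI 1 or C247S KI 4.

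In the list of acute phase and inflammation genes, 18 of 30 tested members were lower in KO and none was higher (median -1.10). Hepatocytes make acute-phase proteins in response to interleukin-6, through STAT3, and to interleukin-1. The 12 members that did not pass included the inflammasome genes Nlrp3, Pycard and Casp1, the cytokine Il1b (0.55, SE 0.47, adjusted p = 0.483) and the chemokines Ccl2 (-2.30, adjusted p = 0.0597) and Cxcl10 (0.29, adjusted p = 0.618). Saa1, serum amyloid A, was 123, 102, 58.1, 110.0 and 153 CPM in KO and 447, 503, 24631, 3357 and 907 CPM in C247S KI (log2 fold change -5.77, SE 1.03, adjusted p = 0.00233). C247S KI 3 stood far above the others, and C247S KI 4 next, yet all 5 were above every KO library. WT held 772 ± 378 CPM. Lcn2, lipocalin 2, was 29.5 to 38.7 CPM in KO and 101, 103, 1954, 260.0 and 172 CPM in C247S KI (-3.96, adjusted p = 0.00287). The log2 fold changes of Saa1 and Lcn2 include C247S KI 3, their highest library, and no value without it is given for them. Orm2, an orosomucoid, was 3.44 to 16.6 CPM in KO and 805 CPM in C247S KI 3 beside 14.2 to 37.3 CPM in the other C247S KI libraries (-4.54, and -1.77 without C247S KI 3, adjusted p = 0.00959). Apcs, serum amyloid P, was 17.4 to 36.3 CPM in KO and 987 CPM in C247S KI 3 beside 51.3 to 73.7 CPM in the others (-3.24, and -1.21 without C247S KI 3, adjusted p = 0.00554). Orm2 did not pass with limma-voom (-2.90, adjusted p = 0.0505), nor Apcs in edgeR's fit with the replicate block (-2.05, adjusted p = 0.0792). Fgb, the fibrinogen beta chain, was 2413 to 3309 CPM in KO and 3457 to 11353 CPM in C247S KI (adjusted p = 0.0407), and its call was lost on leaving out any of 7 single libraries (adjusted p up to 0.0911).

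Other members were called without C247S KI 3 as well. Il1rn, the interleukin-1 receptor antagonist, was 2.57, 2.45, 1.97, 3.27 and 3.05 CPM in KO and 7.1, 5.63, 8.33, 8.32 and 6.85 CPM in C247S KI, with WT at 6.79 ± 0.597 CPM (log2 fold change -1.44, SE 0.16, adjusted p = 6.56e-05). Stat3 was 84.2 ± 8.04 and 174 ± 27.5 CPM, again with no overlap (-1.05, SE 0.14, adjusted p = 0.000271). Cxcl1, a neutrophil chemokine, was 2.07 to 6.56 CPM in KO and 12.3 to 81 CPM in C247S KI (-3.56, adjusted p = 0.00316). The list's count of lower genes was 15 without C247S KI 3, 13 without C247S KI 3 and KO 5, 11 without KO 1, 10 without KO 2, and 9 without KO 3 or without KO 4. The summed level was 16281 to 21277 CPM in KO and 22887 to 157585 CPM in C247S KI. TTCNNNGAA, the palindrome bound by STAT factors, was found in the 250 bases before the start of 5 of 27 members (18.5%) and 7.53% of tested genes, and CCAAT in 5 of 27 (18.5%) and 40.4%.

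Of 28 tested insulin signalling genes 2 were higher and 2 lower (median 0.04). Over all genes 10.3% were called, 4.41% higher and 5.85% lower, and these shares are the background for every list count given. Igfbp1, an insulin-like growth factor binding protein that insulin represses in hepatocytes, was 112, 66.9, 91.8, 64.3 and 139 CPM in KO and 517, 376, 269.9, 550.1 and 235 CPM in C247S KI. These did not overlap (log2 fold change -2.04, SE 0.28, adjusted p = 0.000321), and WT held 219 ± 62 CPM. Trib3, a pseudokinase that binds AKT, was 6.6 to 24.3 CPM in KO and 2.3 to 6.84 CPM in C247S KI, overlapping in 1 library of each (1.64, adjusted p = 0.00275). Pik3r2, a regulatory subunit of PI3-kinase, was 29.5 ± 2.19 and 20.8 ± 2.91 CPM (0.50, adjusted p = 0.0068). Gsk3b was -0.45 (adjusted p = 0.0296), lost on leaving out any of 8 single libraries (adjusted p up to 0.0923). Irs2 (-0.42, SE 0.25, adjusted p = 0.289) and Foxo1 (0.13, SE 0.16, adjusted p = 0.637) did not pass.

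The gluconeogenic enzymes that insulin controls most directly also did not pass. G6pc, glucose-6-phosphatase, was 154 to 441 CPM in KO and 174 to 480.5 CPM in C247S KI (log2 fold change -0.05, SE 0.29, adjusted p = 0.931). Pck1 was 3293 to 4811 and 2272 to 4878 CPM (0.41, SE 0.20, adjusted p = 0.205). Of 20 gluconeogenesis genes 2 were lower, Pck2, the mitochondrial form (-0.95, adjusted p = 0.00351), and the glycerol kinase Gk (-0.87, adjusted p = 0.00253). Of 28 genes of glucose entry and glycolysis 4 were lower and 1 higher. Aldoa was 108 ± 9.37 and 185 ± 24.3 CPM (-0.78, adjusted p = 0.00254), and Hk2, a low-level hexokinase in liver, was 2.02 ± 0.492 and 5.32 ± 2.81 CPM (-1.41, adjusted p = 0.0191). The calls of Hk2, Pfkp (-0.64), Pfkfb2 (-0.73) and the higher Pfkm (0.43) were lost on leaving out any of 3, 7, 5 and 7 single libraries (adjusted p up to 0.0589, 0.12, 0.138 and 0.108). The count of 4 fell to 1 without C247S KI 1 or without C247S KI 5. The transporter Slc2a2 had a log2 fold change of 0.03 (SE 0.18, adjusted p = 0.934). Of 18 glycogen genes 2 were lower, Pgm2 (-0.90, adjusted p = 0.00539) and Gys1 (-0.47, adjusted p = 0.0378), the second lost on leaving out any of 8 single libraries (adjusted p up to 0.114).

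Pdk4, which switches off pyruvate dehydrogenase, was the 1 called gene of 13 that control that complex. Its level was 3.02, 2.68, 3.35, 3.78 and 2.8 CPM in KO, 55.2, 16.2, 9.01, 41.2 and 53.2 CPM in C247S KI, and 44.5 ± 35.7 CPM in WT. KO libraries were uniformly low, and no C247S KI library reached their range (log2 fold change -3.48, SE 0.60, adjusted p = 0.00185).

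Genes that differ between male and female liver differed between the groups. Their sex bias is set by the pattern of growth hormone release, through STAT5 and BCL6. Of 24 male-biased genes 6 were higher and 1 lower in KO (median 0.94), and of 15 tested female-biased genes 4 were lower and none higher (median -0.98). The male-biased count was 14 without C247S KI 3 and 13 with limma-voom. It was 4 on leaving out any single KO library, C247S KI 1, C247S KI 2 or C247S KI 5. Only the 10 libraries, or a minimum fold of 1.2, also gave 4. The female-biased count was 7 without C247S KI 3 and KO 5 together and 8 with DESeq2. With limma-voom, or with a mean count of at least 50, it was 3. Susd4 was 40.5 to 60.5 CPM in KO and 11.9 to 28.2 CPM in C247S KI (log2 fold change 1.27, SE 0.20, adjusted p = 0.00106). Mup12, a major urinary protein, was 600.4 to 858 CPM in KO and 41.1, 169, 359, 197 and 25.1 CPM in C247S KI (2.19, adjusted p = 0.02). Cyp2d9 was 1662 ± 192 and 849 ± 347 CPM (0.97, adjusted p = 0.00894). The male-biased gene that was lower, Selenbp2, was 10.6 to 33.7 CPM in KO and 64.1 to 898 CPM in C247S KI (-4.15, adjusted p = 0.000934). Of the female-biased genes, Cyp17a1, a steroid hydroxylase, was 12.4 to 31.3 and 47.8 to 151 CPM (-2.39, SE 0.32, adjusted p = 0.000271), and Abcd2 was 6 ± 0.44 and 22.2 ± 12.5 CPM (-1.89, adjusted p = 0.00154). Atp6v0d2 was lower (-1.41, adjusted p = 0.0131). Cyp2a4 overlapped, with C247S KI 1 and 5 at 44.4 and 30.3 CPM and the others at 0.57 to 1.74 CPM. Of 16 growth hormone axis genes 3 were higher and 1 lower, including Igfals, a growth hormone target (0.87, SE 0.16, adjusted p = 0.00234). Bcl6 (1.79), Igfbp2 (1.21) and the lower Igfbp3 (-0.58) were lost on leaving out any of 5, 7 and 8 single libraries (adjusted p up to 0.0625, 0.109 and 0.0882), and the count of 3 higher fell to 1 without KO 3, KO 5, C247S KI 1 or C247S KI 5. Y-linked genes summed to 62.3 to 104 CPM in KO, 94.5 to 130.0 CPM in C247S KI and 91 to 135 CPM in WT, and none was called. Every library thus held RNA of male mice. Xist had no matched transcript, so it could not be tested.

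Xenobiotic metabolism had 7 higher and 2 lower genes of 29 (median -0.05). Cyp2a5, a coumarin hydroxylase, was 1553, 1476, 1104, 1951 and 1130 CPM in KO and 433, 365, 179, 663 and 394 CPM in C247S KI, with no overlap (log2 fold change 1.83, SE 0.29, adjusted p = 0.00107). Cyp2c37 was 255 ± 53.1 and 95.8 ± 28 CPM (1.41, adjusted p = 0.000866), Cyp1a2 was 509 ± 122 and 202 ± 79.5 CPM (1.33, adjusted p = 0.00236), and Ugt1a9 was lower (-1.92, adjusted p = 0.0106). Genes that hepatocytes express near the central vein were partly higher, 6 of 18 with 1 lower (median 0.45), and those near the portal vein partly lower, 6 of 17 with 1 higher (median -0.28). Rnf43, a Wnt feedback gene, was 23.1 ± 6.05 and 11.9 ± 2.52 CPM (0.96, adjusted p = 0.00569). The glutamate transporter Slc1a2 was 229 ± 30 and 146 ± 20.3 CPM (0.65, adjusted p = 0.00587), and Cyp2e1, at 10683 ± 1133 and 6260 ± 1429 CPM, was higher too (0.77, adjusted p = 0.0141). The 1 lower pericentral gene was Slc1a4 (-1.83, adjusted p = 0.000335). Of the periportal genes, Ctsc was 26.9 ± 1.73 and 50.3 ± 10.7 CPM (-0.90, adjusted p = 0.000428) and Aldh1b1 had -1.05 (adjusted p = 0.000887). Albumin, Alb, was 38230 ± 6214 and 66613 ± 17790 CPM (-0.80, adjusted p = 0.0219), lost on leaving out any of 3 single libraries (adjusted p up to 0.0685).

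**Figure D4:**
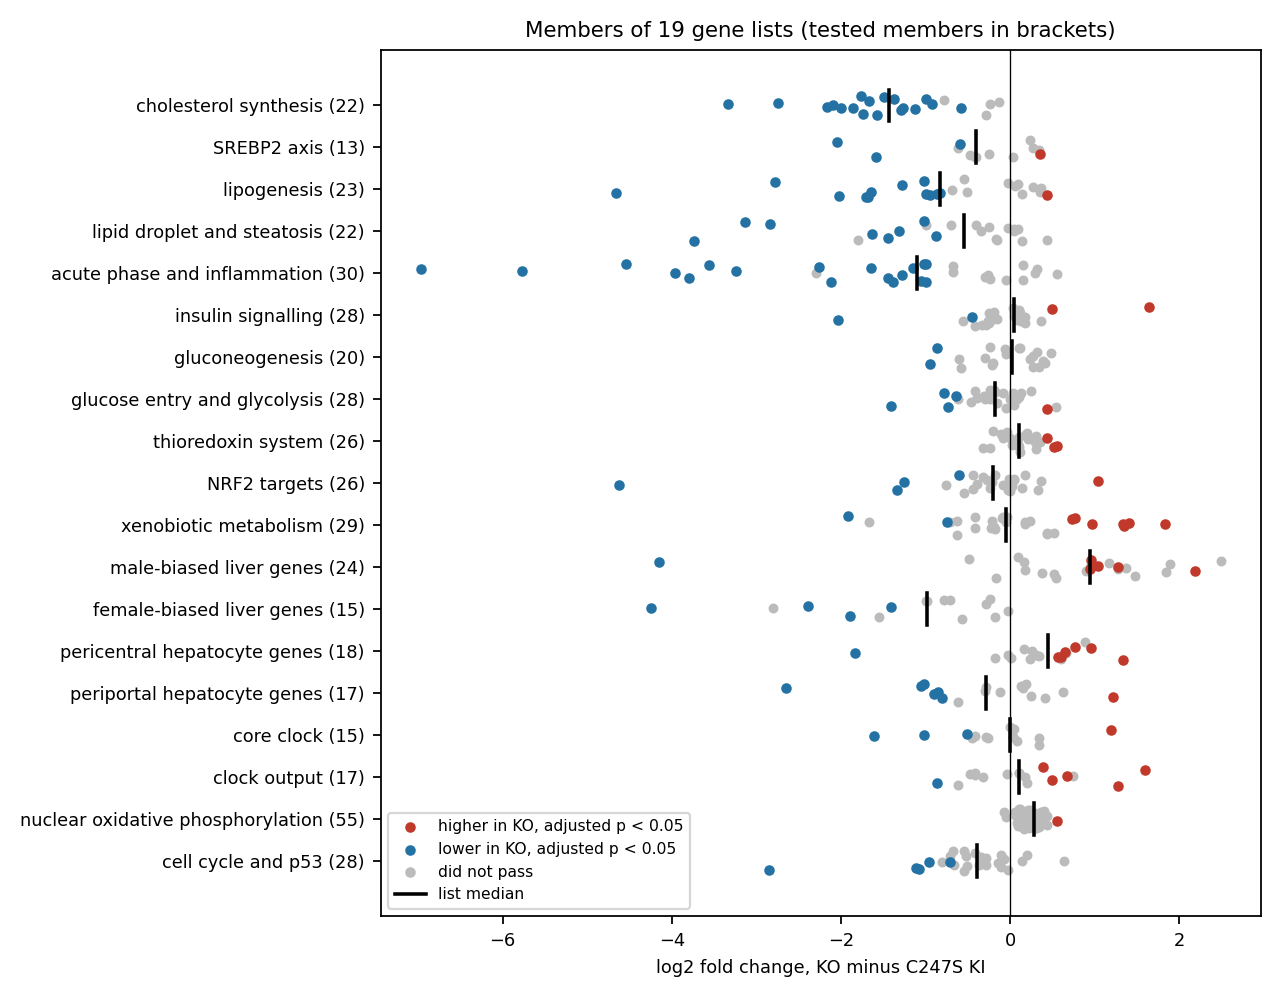
Each point is a tested member of 1 of 19 gene lists (y axis), at its log2 fold change of KO minus C247S KI (x axis), red where called higher, blue where called lower and grey where it did not pass, with a black line at the list's median. Cholesterol synthesis (18 of 22 lower), acute phase (18 of 30 lower) and lipogenesis (12 of 23 lower) have the most calls in 1 direction.

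Clock genes differed between the groups in both directions. The core loop is driven by CLOCK and ARNTL, which bind the E-box CACGTG and switch on Per, Cry and Nr1d1 as well as the output factors Dbp, Tef and Ciart. Dbp was 130.5, 267, 166, 173 and 172 CPM in KO and 67.7, 82.7, 73.6, 33.3 and 45.3 CPM in C247S KI, with no overlap (log2 fold change 1.59, SE 0.24, adjusted p = 0.000853). Arntl moved the other way, 1.1 to 1.57 CPM in KO and 3.23 to 7.14 CPM in C247S KI (-1.61, SE 0.30, adjusted p = 0.00276). Of 17 clock output genes 5 were higher and 1 lower (median 0.10), and of 15 core clock genes 1 was higher and 3 lower (median 0.00). Tef was 213 ± 3.02 and 163 ± 14.6 CPM (0.39, adjusted p = 0.0182), Bhlhe41 was 3.63 to 11.6 and 1.48 to 3.48 CPM (1.28, adjusted p = 0.016), and Cry1 had -1.02 (adjusted p = 0.0183). Clock (-0.51), Nr1d1 (1.19), Ciart (0.67), Usp2 (0.50) and Nfil3 (-0.87) were lost on leaving out any of 3, 6, 3, 7 and 4 single libraries (adjusted p up to 0.06, 0.133, 0.0555, 0.0752 and 0.0662). The count of 5 was 2 without C247S KI 3 and KO 5 together, and 3 without KO 3, KO 5 or C247S KI 5.

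The E-box is shown in 2 of the higher genes, chosen because they hold it, with CACGTG in capitals (RefSeq, GRCm38.p6).
Ciart (chr3:95882302-95882381, minus strand): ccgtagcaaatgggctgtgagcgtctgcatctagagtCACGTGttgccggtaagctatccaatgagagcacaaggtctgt
Bhlhe41 (chr6:145865531-145865610, minus strand): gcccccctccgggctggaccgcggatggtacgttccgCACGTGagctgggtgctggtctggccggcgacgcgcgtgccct
CACGTG stood in the 250 bases before the start of 5 of 14 clock output genes (35.7%), 2 of 11 core clock genes (18.2%) and 9.41% of tested genes. The D-box TTATGTAA stood in none of the 14 and 1 of the 11 (9.09%), beside 0.682% of tested genes.

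The index of clock output, the mean log2 CPM of Dbp, Ciart and Per1 to Per3 less that of Arntl, Clock and Nfil3, was 2.13 to 2.73 in KO, 0.03 to 1.39 in C247S KI and 0.98 to 1.90 in WT. The labels used here give no time of collection. With the index as a covariate 108 genes passed the threshold, 24 higher and 84 lower, 96 of them also called without it. Cholesterol synthesis then had 15 lower members, lipogenesis 5, lipid droplets 1 and acute phase 1, and Txnip was at -0.98 (adjusted p = 0.287). The index does not overlap between the groups and is made of genes that are themselves compared, so clock phase and genotype cannot be told apart.

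**Figure D5:**
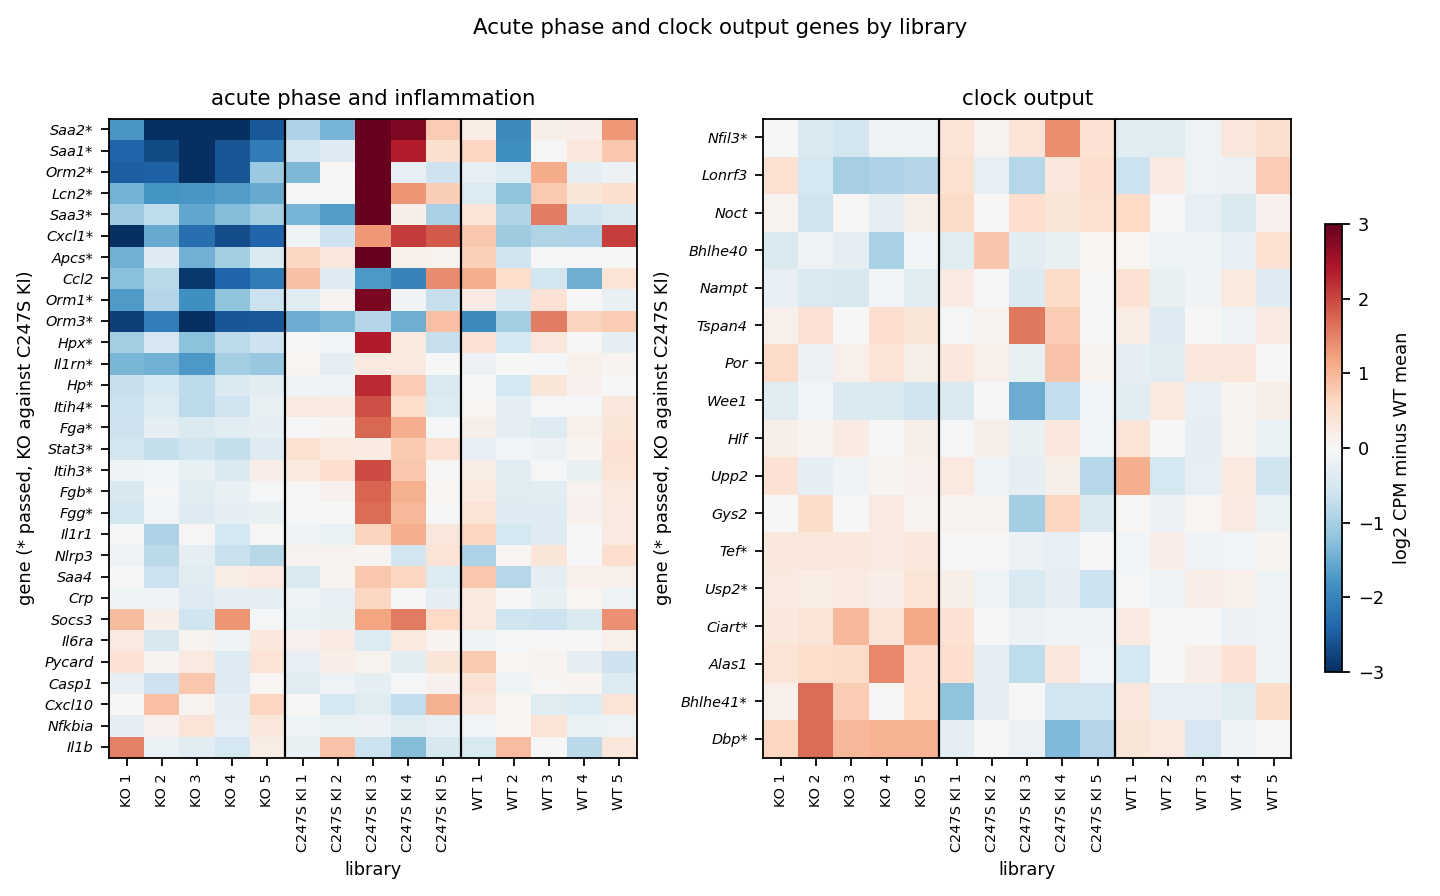
Log2 CPM minus the WT mean for the acute phase and clock output lists (rows) in the KO, C247S KI and WT libraries (columns), with colours that stop at 3 in either direction. In the acute phase rows C247S KI 3 is mostly above the WT mean and the KO libraries mostly below it.

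Some cell cycle genes were lower in KO. Of 28 genes of the cell cycle and p53 response 5 were lower and none higher (median -0.39). Cdkn1a, the cyclin-dependent kinase inhibitor p21, was 14.8, 6.19, 12.8, 14.2 and 13.8 CPM in KO and 105, 67.6, 49.4, 148 and 75.4 CPM in C247S KI (log2 fold change -2.85, SE 0.34, adjusted p = 0.000108). WT held 84.2 ± 36.7 CPM. Ccnd1, cyclin D1, was 11.6 ± 1.55 and 24.6 ± 5.9 CPM (-1.08, adjusted p = 0.00172). The calls of Gadd45b (-1.11), Ccne1 (-0.96) and Rrm2 (-0.71) were lost on leaving out any of 6, 7 and 7 single libraries (adjusted p up to 0.0978, 0.0888 and 0.114), and the count of 5 fell to 2 without KO 5, C247S KI 1 or C247S KI 5. Of 18 immediate-early genes 3 were lower and 2 higher, with Btg2 at 21.3 ± 3.42 and 61.8 ± 18.8 CPM (-1.53, adjusted p = 0.000216) and Ier2 higher (0.75, adjusted p = 0.0142). Fosl2 (-0.89) and Klf6 (-1.34) were the other lower genes, and the higher Nr4a1 (means 8.31 and 3.6 CPM) was lost on leaving out any of 8 single libraries (adjusted p up to 0.103). The count of 3 lower was 5 without C247S KI 2 or without C247S KI 3.

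Of 26 NRF2 targets 4 were lower and 1 higher (median -0.20). Hmox1, heme oxygenase, was 7.21 to 14.8 CPM in KO and 17.1 to 44.6 CPM in C247S KI (log2 fold change -1.34, adjusted p = 0.00241). Gsta1 was at 0 to 0.674 CPM in KO and 0.45 to 11.7 CPM in C247S KI (-4.62, adjusted p = 0.0119), so the groups overlapped at a low level. Its relatives Gsta2 and Gsta4 were not called (-0.22 and 0.14, adjusted p = 0.785 and 0.76). Gstm3 (-1.25), Pgd (-0.60) and the higher Gstp1 (1.04) were lost on leaving out any of 7, 5 and 9 single libraries (adjusted p up to 0.163, 0.0673 and 0.119). The count of 4 fell to 2 without KO 2, KO 4, KO 5, C247S KI 1 or C247S KI 5. Of 17 iron genes 5 were lower, among them the metal importer Slc39a14 (212 ± 21.9 and 442 ± 100.1 CPM; -1.06, adjusted p = 0.000537) and Hfe2, hemojuvelin (-0.79, adjusted p = 0.00241). Hmox1, the copper oxidase Cp (-0.79) and Id1 (-0.70) were the others, Id1 lost without KO 2 or KO 5 (adjusted p up to 0.0623). Of 12 polyamine genes Amd2 and Sat1 (-0.58, adjusted p = 0.0133) were lower and Srm, spermidine synthase, was higher (0.49), lost on leaving out any of 5 single libraries (adjusted p up to 0.0756).

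Interferon-stimulated genes had 3 higher of 30 (median 0.22), among them Ifit3 (0.79, adjusted p = 0.0149) and Irf7 (0.68), the second lost on leaving out any of 2 single libraries (adjusted p up to 0.0538). The count of 3 fell to 1 without KO 5 or without C247S KI 1. Of 19 genes of MHC class I presentation 2 were higher and 2 lower. The peptide transporter Tap1 was 34 to 44.6 CPM in KO and 19.4 to 28.1 CPM in C247S KI (log2 fold change 0.82, SE 0.12, adjusted p = 0.000438). Psmb9 (0.54), H2-Q1 (-1.23) and Nlrc5 (-0.75) were lost on leaving out any of 6, 5 and 6 single libraries (adjusted p up to 0.0717, 0.0782 and 0.0998). Of 26 genes of endoplasmic reticulum stress 1 was higher, Trib3, and 1 lower, Atf6 (-0.42, adjusted p = 0.0281), lost on leaving out any of 7 single libraries (adjusted p up to 0.099). None of 16 heat shock and cold-inducible genes was called.

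Amino acid and respiratory genes hardly changed in calls. Of 25 urea cycle and amino acid genes only Sdsl was called (log2 fold change -0.85, adjusted p = 0.0228), lost on leaving out any of 5 single libraries (adjusted p up to 0.06). Of 55 nuclear genes of oxidative phosphorylation 53 had positive log2 fold changes (median 0.28), but only Ndufs7 passed (0.55, adjusted p = 0.0281), lost on leaving out any of 5 single libraries (adjusted p up to 0.0884). Of 13 subunits encoded by the mitochondrial genome only mt-Nd3 passed, at 243 ± 39 CPM in KO, 607 ± 51.9 CPM in C247S KI and 205 ± 30.3 CPM in WT (-1.32, adjusted p = 5.92e-05). The predicted gene Gm28438 ran the other way, at 478 ± 55.2, 17.6 ± 5.64 and 435 ± 65.3 CPM (4.76, adjusted p = 7.47e-10). Their sum was 721 ± 90.7 CPM in KO and 625 ± 52.5 CPM in C247S KI, a log2 difference of 0.20, so the mt-Nd3 value is uncertain.

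Genes that can differ between mouse lines differed here too. Of 5 tested line markers 2 were higher and 2 lower. Nnt, a mitochondrial transhydrogenase that C57BL/6J mice lack in full-length form, was 111 to 137 CPM in KO and 32.8 to 63.3 CPM in C247S KI (log2 fold change 1.28, SE 0.14, adjusted p = 7.6e-05), with WT at 58 ± 6.72 CPM. Wdfy1 was higher (1.45, adjusted p = 0.00116), while Ide (-0.94, adjusted p = 0.000271) and Entpd4 (-0.89, adjusted p = 0.000953) were lower. Among 80 tested genes within 2 Mb of Txnip on either side 6 were higher and 10 lower (20%), and among 109 within 5 Mb 9 were higher and 13 lower (20.2%), against 10.3% of all genes. The part of genetic background in the other results was not tested. The numbers in the sample titles ran from 1176 to 1288 in KO and from 3082 to 3154 in C247S KI, and the labels do not say what they mean.

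Markers of other liver cells were examined beside these results. None of 14 Kupffer cell and macrophage markers was called (median 0.47; summed level 229 to 526 CPM in KO and 215 to 391 CPM in C247S KI), and none of 9 T, NK and B cell or 12 neutrophil and monocyte markers. Of 11 lipid-associated macrophage markers 4 were lower (median -0.71; 337 to 424 and 404 to 554 CPM). These were Spp1, osteopontin (-1.48, adjusted p = 0.00304), Fabp5 (-2.84, adjusted p = 0.00537), Cd9 (-0.65, adjusted p = 0.0177) and Gpnmb (-1.98, adjusted p = 0.0212). The call of Gpnmb was lost on leaving out any of 4 single libraries (adjusted p up to 0.0737). The list's count was 7 without C247S KI 3, and 3 without KO 2, KO 4, KO 5 or C247S KI 5. Of 16 sinusoidal endothelial markers only Lyve1 was called, lower in KO (-1.46, adjusted p = 0.00165). Most of that list went the other way, with 12 positive log2 fold changes (median 0.36, summed level 278 to 474 and 258 to 339 CPM). Of 22 stellate cell and matrix markers Col4a1 was lower (-1.19, adjusted p = 0.00221, summed level 485 to 912 and 729 to 1082 CPM). Of 11 cholangiocyte markers Spp1 and Sox9 (-1.04, adjusted p = 0.0122) were lower and Krt23 higher (1.66, adjusted p = 0.013). Hepatocyte markers summed to 54992 to 74776 CPM in KO and 73974 to 123865 CPM in C247S KI, with Alb and Fgb lower of 9. The other tested hepatocyte markers were not called, and the list's median was -0.11. Alb alone had means of 38230 CPM in KO and 66613 CPM in C247S KI, so the sums mostly follow Alb. Of 7 erythroid markers only Slc4a1 was called, lower in KO (-0.98, adjusted p = 0.0485), lost on leaving out any of 7 single libraries (adjusted p up to 0.135). In that list 5 log2 fold changes were positive (median 0.39). Of 3 tested pancreas and gut markers Cela1 was higher, at 32.8 to 52.9 and 5.39 to 16.2 CPM. The part of cell composition in the results above was not tested.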

How the data were processed

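Liver RNA was sequenced in 15 libraries, 5 per group. The authors deposited estimated counts per transcript as whole numbers, made with kallisto 0.50.1 after Trimmomatic 0.39, per the submitters' processing notes, which also name DESeq2 and mm10. Which transcript set was used is not given in the sources. Reads shared by several transcripts had been divided before deposit. Transcripts were matched to GENCODE M21 without version (114331 of 115911, 98.64%); unmatched ones held 0.366% to 0.459% of counts and stayed out of library sizes and tests. Matched counts were summed to 35546 genes.

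All 15 libraries entered 1 fit in edgeR 4.0.16 (R 4.3.3): filterByExpr (minimum count 10, minimum total 15), TMM, group means, quasi-likelihood test, Benjamini-Hochberg adjusted p below 0.05. The SE is the log2 fold change over the root of F. CPM use TMM factors. The procedure was tested on simulated counts. Same-group libraries differed beyond counting noise (20 pairs, with chi-square over its degrees of freedom at 22.8 to 368.5).

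Members, gene lists and the naming rule were chosen with earlier results of these data known. The rule named Txnip, its paralogues and thioredoxins, the 12 largest rises and falls with no overlap and at least 1 CPM (no predicted genes), and per list the called members of lowest p, 4 at most; others (among them G6pc, Pck1, Srebf1, Mlxipl, Irs2, Foxo1, Slc2a2, Gm28438 and Elovl5) were chosen after their values were seen. Some genes the rule named are not reported here. Motifs, printed promoters, the clock index and the pair C247S KI 3 and KO 5 were also chosen after seeing the data. Alternatives were RLE or upper-quartile factors, voom in limma 3.58.1, DESeq2 1.42.0, no filter, a mean count of at least 50, only 10 libraries, the replicate number as a block, a minimum fold of 1.2 and each library left out.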

Additional observations from a re-analysis of the deposited data

Results flagged for a closer look

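In 22 cases the highest or lowest of a group's 5 libraries stood apart from the other 4 on the scale of log2 CPM. The gap was more than 0.71 of the group's whole range on that scale (Dixon's 95% value). They came from 348 groups of 5 libraries, 174 genes in each of KO and C247S KI. Chance flags about 1 in 20 groups. The values printed are CPM, not the log2 CPM on which the gaps were measured. In C247S KI 4, Fdft1 was lowest at 31 (others 83.3 to 122), Arntl was highest at 7.14 (others 3.23 to 3.89), Nfil3 was highest at 82.3 (others 33.8 to 42.6) and Rsph3b was highest at 60.4 (others 46.1 to 48.8). In C247S KI 1, Ciart was highest at 34.6 (others 22.8 to 24.7). In KO 2, Insig2 was lowest at 56.3 (others 71.6 to 77.9), Igfbp2 was highest at 942 (others 497 to 585), Cdkn1a was lowest at 6.19 (others 12.8 to 14.8), Wdfy1 was highest at 47.5 (others 35.5 to 37.7) and Rsph3b was highest at 295 (others 188 to 209.7). In KO 4, Apoa4 was highest at 488 (others 179.6 to 233). In C247S KI 3, Orm2 was highest at 805 (others 14.2 to 37.3), Apcs was highest at 987 (others 51.3 to 73.7), Slc2a2 was lowest at 150.0 (others 276 to 350.3) and Igfbp3 was lowest at 11.5 (others 18.4 to 22). In KO 5, Susd4 was highest at 60.5 (others 40.5 to 44.8) and Cyp2a22 was lowest at 0.102 (others 0.321 to 0.466). In C247S KI 2, Bcl6 was highest at 31 (others 9.79 to 12.8), Tap1 was highest at 28.1 (others 19.4 to 21.4) and Aqp4 was highest at 4.43 (others 1.13 to 1.63). In C247S KI 5, Wdfy1 was highest at 24.3 (others 9.72 to 12.3). In KO 1, Notum was lowest at 52.8 (others 62.7 to 64.6). These values were kept in the results above.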

How the results depend on the processing

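Against the 1427 genes called, DESeq2 called 1887, limma-voom 1351, RLE factors 1398, upper-quartile factors 1426, the 10 libraries alone 1279, and fits with no filter on counts or only genes averaging 50 or more 1137 and 1450. Testing against a fold of 1.2 left 519 (157 higher, 362 lower), by the stricter null. Without C247S KI 3 and KO 5 there were 1687, and with the clock index 108 (24 higher, 84 lower). Leaving out 1 library gave 784 to 2280 calls, 302 to 1031 higher and 475 to 1249 lower. No gene called both ways had opposite signs in any of these settings. The replicate numbers did not pair the libraries (same-number correlations of KO and C247S KI deviations -0.069 to 0.092, the best of 5 for none), and the replicate block gave 1594 calls. Under it the acute phase list had 11 lower genes, and it had 10 with limma-voom and 10 against a fold of 1.2, beside 18. Cholesterol synthesis had 15 to 18 lower genes in all settings run. Glycolysis had 7 lower with DESeq2, beside 4, and NRF2 targets 2 and the cell cycle list 3 with limma-voom, beside 4 and 5. Fatty acid oxidation had 3 lower under the replicate block, beside 5. Against a fold of 1.2, the thioredoxin and interferon lists had 0 higher, beside 3 each.

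Txnip was -0.96 against a fold of 1.2 and -0.98 with the clock index, neither past the threshold, and -1.13 to -0.77 with 1 library left out. The values that changed sign belong to genes that did not pass the test, except Nr1d1 and Nfil3. With the clock index, the log2 fold change was 0.10 for Arrdc1, -0.20 for Arrdc2, -0.67 for Arrdc3, -0.32 for Arrdc4, 0.19 for Txnrd1, -0.73 for Srebf1, -0.44 for Mlxipl, 0.16 for Irs2, -0.26 for Slc2a2, -0.08 for Nr1d1 and 0.24 for Nfil3. Arrdc1 was also 0.06 with limma-voom, 0.01 with no filter, 0.03 with the replicate block and 0.05 without C247S KI 3 and KO 5, where Slc2a2 was -0.14. With 1 library left out, Arrdc1 ran from -0.15 to 0.24, Arrdc4 from -0.02 to 0.31, Txnrd1 from -0.14 to 0.02, Srebf1 from -0.07 to 0.31, G6pc from -0.26 to 0.20 and Slc2a2 from -0.13 to 0.13. The cause of these changes was not tested. Of the 160 called genes named, 46 lost the call without at least 1 library. At this depth, genes under about 1 CPM rest on few counts.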

Other observations

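Metallothioneins, which bind zinc and copper, were lower in KO. Mt1 was 117 to 367 CPM in KO and 573 to 2056 CPM in C247S KI (log2 fold change -2.59, SE 0.42, adjusted p = 0.00127), and Mt2 was 51.1 to 196 and 353 to 1154 CPM (-2.89, SE 0.45, adjusted p = 0.000925). Notum, an enzyme that inactivates Wnt proteins, was 61.7 ± 5.05 and 28.5 ± 3.92 CPM (1.11, adjusted p = 6.8e-05). The oestrogen receptor Esr1 was 5.48 ± 1.83 and 17.5 ± 6.53 CPM (-1.68, adjusted p = 0.000924). The histone gene Hist1h2al, one of a family of near-identical copies, was 5.64 to 9.34 CPM in KO, 0 to 0.125 CPM in C247S KI and 0.0599 ± 0.0243 CPM in WT (6.64, adjusted p = 2.62e-09). These genes were chosen after their values were seen.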
